A study of Rattus norvegicus with 18 samples.

Results

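The transcripts of 95 rat genes for splicing factors and other RNA-binding proteins were followed through lung ischemia and reperfusion. They were chosen by name: every gene on the array whose symbol begins with Srsf, Hnrnp, Sf3a or Sf3b, Snrp, Prpf, Ddx or Rbm followed by a digit, without Rbm38. They are 95 of 10411 genes that probe sets with 1 symbol name, and they comprise 7 SR proteins, 16 hnRNP proteins, 8 subunits of SF3A and SF3B, 8 Sm and other snRNP proteins, 10 PRPF factors, 25 DEAD-box helicases and 21 RBM proteins. Where a gene had several probe sets, the one with the highest mean over all arrays was used. The operated arrays count in this mean, so the choice depends partly on the compared values and can favour probe sets that are higher there. The probe sets of 91 genes passed the filter on low signals and were tested. Ddx25, Ddx28, Ddx52 and Srsf10 were too dim to be tested. A further 10 probe sets that name several genes, such as those of Srsf3, Snrpc, Snrpg and Hnrnpk, were left out.

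Rat lungs were compared on 1-colour Affymetrix arrays, 1 lung per array, in 5 groups. All rats were male Sprague-Dawley. In the operated rats, which were ventilated through a tracheotomy, the left hilum was clamped for 2 h with the lung warm and in place, and the clamp was then released for 30 min or 3 h. Both lungs of each rat were taken, so that 3 clamped left lungs and 3 unclamped right lungs stand at each time. The controls were 6 normal lungs of other rats, taken right after anesthesia and sacrifice, and the labels mention no clamp, thoracotomy or ventilation for them. The side of the control lungs is not given in the labels. Clamp and side, and clamp and reperfusion, cannot be told apart in this design, and a difference from control may include effects of surgery and ventilation. The p-values measure the spread between single lungs.

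Most pre-mRNA introns are removed by the spliceosome, which is built from small nuclear ribonucleoproteins and many added proteins. SR proteins generally bind exonic sequences and promote the use of nearby splice sites, whereas hnRNP proteins coat nascent RNA and often oppose them. The SF3A and SF3B complexes help the U2 particle to hold the branch point, Sm proteins form the ring around the small nuclear RNAs, and PRPF factors act in the assembly and remodelling of the spliceosome. DEAD-box helicases use ATP to rearrange RNA and its proteins in splicing, export, translation and ribosome assembly. Many genes of SR proteins, hnRNP proteins and RBM proteins regulate their own transcript level through the splicing of poison exons or 3' ends. The arrays measured transcript level at the position of each probe set; splicing itself was not measured. In whole lung, fewer cells of a type and less RNA per cell cannot be told apart.

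The 3 promoter stretches shown were picked from members with higher signals in the operated lungs because each holds a stress- or signal-related motif. Of the 95 members, 90 matched a gene in RefSeq's promoter table (rat build GRCr8, 250 bases before to 50 after the start). Capitals mark the motif matches, and every stretch is given 5′ to 3′ on the gene's strand.
Srsf5, chr6:106336626-106336695, plus strand: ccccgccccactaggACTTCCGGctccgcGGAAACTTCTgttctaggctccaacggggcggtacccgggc
Ddx41, chr17:9107920-9107989, plus strand: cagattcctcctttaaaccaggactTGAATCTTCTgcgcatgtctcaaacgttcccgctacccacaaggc
Rbm18, chr3:39884578-39884647, minus strand: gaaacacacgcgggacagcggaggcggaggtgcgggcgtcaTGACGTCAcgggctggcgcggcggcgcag

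The Srsf5 stretch holds a match to the ETS motif CCGGAAGT, on the opposite strand, 115 bases before the start and a match to the heat shock element (searched as GAA and TTC with any 2 bases between them and any base at each end) 101 bases before it. The Ddx41 stretch holds a heat shock element 225 bases before the start, and the Rbm18 stretch a cAMP response element TGACGTCA 29 bases before it. Both strands were searched. Over the 90 promoters, the heat shock element occurred in 8 (8.89%), beside 8.28% of all 27457 promoters and 5.5% of the 8611 promoters of genes on the array. The cAMP response element occurred in 4 (4.44%, beside 1.91% and 2.86%), the E2F motif TTTCGCGC in 1 (1.11%, beside 0.342% and 0.569%) and the ETS motif in 13 (14.4%, beside 4.01% and 7.08%). The members' promoters were rich in CpG: the median ratio of observed to expected CpG was 0.878, beside 0.741 for genes on the array and 0.417 for all promoters. The heat shock element also lay in the promoters of Hnrnpl, Rbm8a, Hnrnpa2b1, Ddx23 and Ddx42, which were called in no comparison with control. Its remaining carrier was Hnrnpc, called higher in the left lungs at 3 h. The other carriers of the cAMP response element were Ddx49 and Ddx51, not called, and Ddx28, too dim to be tested. These matches are descriptions of the letters. Binding was not measured, and a relation of motifs to the differences was not tested.

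In the left lungs, more of these genes were higher than control than were lower. Differences are on the log2(signal + 25) scale with limma standard errors, which understates the change of dim genes, and a gene was called where its Benjamini-Hochberg adjusted p over all 10533 tested probe sets was under 0.05. At 30 min, 20 of the 91 members (22.0%) were called higher and 5 (5.49%) lower, beside 8.7% and 11.2% of all tested probe sets. At 3 h, 29 (31.9%) were higher and 11 (12.1%) lower, beside 13.8% and 23.9%. The higher counts at both times include Snrpa and Snrpa1. These genes passed the filter through their signal in the operated lungs, so their calls are no evidence of a rise. In the right lungs the shares lay closer to those of all probe sets in the higher direction: 11 higher (12.1%, beside 6.07%) and 6 lower (6.59%, beside 7.29%) at 30 min, and 12 higher (13.2%, beside 8.24%) and 8 lower (8.79%, beside 13.2%) at 3 h. These 4 comparisons share the same 6 controls.

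The median difference of the 91 members was 0.12 in the left lungs at both times, and 0.09 and 0.08 in the right lungs at 30 min and 3 h. Over all tested probe sets the median was -0.07 and -0.12 in the left lungs and -0.04 and -0.04 in the right lungs, so the members lay 0.19, 0.25, 0.13 and 0.12 above it. With arrays centred on their median, the split in the left lungs at 3 h was 35 higher and 7 lower in place of 29 and 11. Across the 5 groups, an F test called 35 of the 91 members (38.5%), close to the 37.7% of all tested probe sets. In the left lungs at 3 h the count rested partly on 1 lung: without left 3 h replicate 1, 25 members were called in place of 40. In the right lungs at 30 min it was 10 without replicate 1 (5 higher and 5 lower) or without replicate 2 (7 higher and 3 lower), in place of 17. Higher calls also did not outnumber lower ones in the right lungs in 3 other settings: at 30 min the compared groups alone gave 9 higher and 10 lower, and at 3 h the split was 10 and 11 with all probe sets of a gene averaged and 10 and 10 without right 3 h replicate 2.

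**Figure D1:**
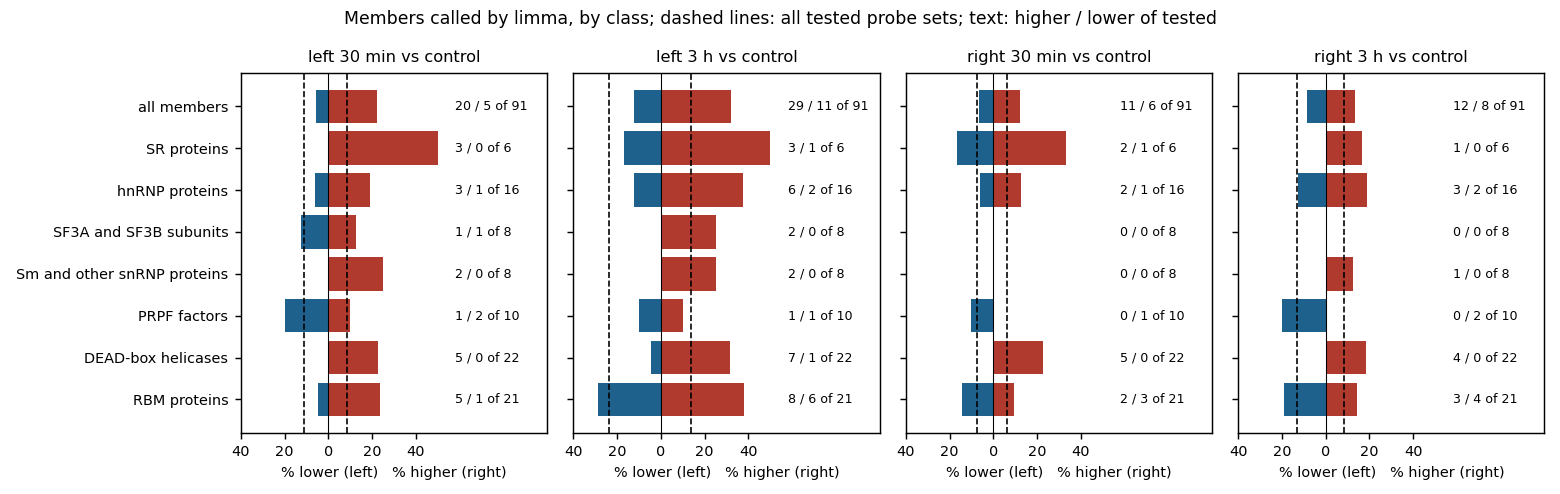
Share of tested members called higher (red, to the right) and lower (blue, to the left) than the 6 controls, in percent, for all 91 tested members and for each of the 7 classes, 1 panel per comparison; dashed lines give the shares of all 10533 tested probe sets, and the text in each row gives higher and lower counts of those tested. In the left lungs at 3 h the bar of all members reaches 31.9% higher and 12.1% lower, with the dashed lines at 13.8% and 23.9%.

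The quality of the arrays bears on the 30 min counts. The ratio of 3' to 5' actin signal, a measure of RNA integrity, was 4.81 and 2.30 on left 30 min replicates 1 and 3 and 2.93 on right 30 min replicate 3, and 1.31 to 1.78 on the others. Without these 3 arrays, which leaves a single left lung at 30 min that is assumed to vary like the other groups, 8 members were called there, 6 higher and 2 lower: Ddx19b, Ddx39a, Ddx3x, Hnrnpa1, Hnrnpdl, Rbm18, Rbm4b and Prpf19. All other left 30 min calls were lost without these arrays, among them those of Srsf5, Srsf11, Hnrnpul1, Snrpa1, Prpf39 and Rbm3. A loss in a fit with a single left lung does not show that a difference is absent. With the log2 actin ratio as a covariate the count of left 30 min calls was 13. At 3 h all 40 left and all 20 right calls were kept both ways. Markers of other cell types were called as well. Of 8 tested neutrophil markers, 4 were called higher in each operated group, and 1 was called lower in each group except the right lungs at 3 h. Of 8 lymphocyte markers, 4 were called lower at 30 min and 6 at 3 h on each side. In the left lungs at 3 h 6 of 9 alveolar type II markers were lower, and in the right lungs at 30 min 5 of 8 alveolar type I markers were lower and 4 of 5 erythroid markers higher. The mean log2 signals of these cell types per array were bright for type II cells in every lung. They ran from 7.94 to 8.62 in the controls and 8.81 to 10.7 in the operated lungs for neutrophils. For lymphocytes they ran from 8.02 to 8.44 and 7.23 to 8.21, and for type II cells from 12.4 to 12.5 and 11.4 to 12.4. Each mean covers all measured markers of the type, which for lymphocytes are 11, including those too dim to be tested. In exact two-sided permutation tests of the marker means against control, the smallest p was 0.0238, or 0.0544 adjusted over 48 tests. The part of these markers in the results was not tested.

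Among the SR proteins, Srsf5, Srsf11 and Srsf2 rose in the left lungs at both times, 3 of the 6 tested. These are 50% at each time, beside 8.7% of all tested probe sets called higher at 30 min and 13.8% at 3 h. At 3 h 1 was lower there (16.7%, beside 23.9%). The right lungs had 2 higher and 1 lower at 30 min (33.3% and 16.7%, beside 6.07% and 7.29%), and 1 higher at 3 h (16.7%, beside 8.24%). The Srsf5 signal ran from 1953 to 3048 over the 6 controls, with a median of 2423. It was 3975, 3914 and 4086 in the left lungs after 30 min and 4259, 4129 and 4250.3 after 3 h, beside 3194, 3519 and 3236 and 3242, 3030.5 and 3692 in the right lungs at the same times. Every operated lung except 1 of the right lungs at 3 h lay above the highest control, and the left lungs lay above the right lungs at each time. Srsf5, a splicing activator whose transcript is induced by insulin in other cells, rose by 0.72 ± 0.13 (adjusted p = 0.001) in the left lungs at 30 min and 0.80 ± 0.13 (adjusted p = 0.00021) at 3 h, or 1.74-fold. In the right lungs its differences were 0.45 ± 0.13 (adjusted p = 0.028) and 0.45 ± 0.13 (adjusted p = 0.02). The right 30 min call was lost without control replicate 3 or 4 or any of the 3 right lungs (0.39 to 0.48), and the right 3 h call without replicate 3 (0.37).

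The Srsf11 signal ran from 943 to 1147 over the 6 controls, with a median of 1038. It was 1468, 1509 and 1865 in the left lungs after 30 min and 1739, 1544 and 1706 after 3 h, beside 1219, 1427 and 1335 and 1394, 1269 and 1019 in the right lungs at the same times. All lungs of the left side and of the right side at 30 min lay above the controls, and the right lungs at 3 h overlapped them. Srsf11, an SR-related protein that contacts both U1 and U2 components, rose by 0.62 ± 0.11 (adjusted p = 0.0011) and 0.67 ± 0.11 (adjusted p = 0.00028) in the left lungs at 30 min and 3 h. In the right lungs its differences were 0.35 ± 0.11 (adjusted p = 0.049) at 30 min, a call lost in 8 of 9 fits that left out 1 array, and 0.23 ± 0.11 (adjusted p = 0.16) at 3 h. Srsf2, the classical marker of nuclear speckles, rose in the left lungs by 0.39 ± 0.11 (adjusted p = 0.019) and 0.33 ± 0.11 (adjusted p = 0.028). The first of these calls was lost without left 30 min replicate 1 (0.33) and the second without control replicate 3 or 6 or left 3 h replicate 1 (0.22 to 0.30). In the right lungs the Srsf2 differences were 0.20 at 30 min and 0.004 at 3 h, neither called. The other tested Srsf2 probe set was called higher at 3 h on both sides, by 0.85 on the left and 0.57 on the right (adjusted p = 0.0021 and 0.036). At 30 min it gave 0.39 on the left and 0.38 on the right, neither called. Srsf9 fell by 0.34 in the left lungs at 3 h (adjusted p = 0.019) and by 0.36 in the right lungs at 30 min (adjusted p = 0.033). The Srsf9 calls were lost without left 3 h replicate 1 or 3 (-0.29 and -0.30), and in 8 of 9 fits for the right lungs.

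Of the 16 hnRNP proteins, 3 were higher and 1 lower in the left lungs at 30 min (18.8% and 6.25%, beside 8.7% and 11.2% of all tested probe sets), and 6 were higher and 2 lower at 3 h (37.5% and 12.5%, beside 13.8% and 23.9%). The right lungs had 2 higher and 1 lower at 30 min (12.5% and 6.25%, beside 6.07% and 7.29%), and 3 higher and 2 lower at 3 h (18.8% and 12.5%, beside 8.24% and 13.2%). With the probe sets used, Hnrnpa1, an abundant shuttling protein that binds exonic silencers, had the largest rise of all members in the left lungs at 30 min. The Hnrnpa1 signal ran from 681 to 794 over the 6 controls, with a median of 721. It was 1806, 1891 and 1429 in the left lungs after 30 min and 1360.5, 1395 and 1169 after 3 h, beside 1330.4, 1057 and 1101 and 1119, 1235 and 869 in the right lungs at the same times. Every operated lung lay above every control, and the left lungs at 30 min were the highest group. The differences were 1.19 ± 0.12 (adjusted p = 9.5e-06) or 2.28-fold in the left lungs at 30 min and 0.82 ± 0.12 (adjusted p = 0.00011) at 3 h, and 0.65 ± 0.12 (adjusted p = 0.0023) and 0.53 ± 0.12 (adjusted p = 0.0061) in the right lungs. Of the other tested Hnrnpa1 probe sets, 1 was called higher in the left lungs as well, by 0.54 at 30 min and 0.30 at 3 h, and the values of the other were 0.32 and 0.12. The first of these was the brighter in the controls, with a mean of 846 beside 730 for the probe set used. The probe set used thus had the highest mean through the operated lungs. Neither was called in the right lungs, with 0.31 and 0.20 for the first of these and 0.12 and -0.10 for the other. Hnrnpa1 has many near-identical processed copies in mammalian genomes, so the share of the signal from such copies is uncertain.

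Hnrnpdl, a relative of AUF1 that binds AU-rich RNA, rose in all operated groups. The Hnrnpdl signal ran from 1432 to 1615 over the 6 controls, with a median of 1448. It was 2171, 2563 and 2212 in the left lungs after 30 min and 2995, 2837 and 2281 after 3 h, beside 2405, 2045 and 1640.3 and 2259, 2614 and 2243 in the right lungs at the same times. All operated lungs lay above the highest control. The differences were 0.64 ± 0.12 (adjusted p = 0.0015) and 0.86 ± 0.12 (adjusted p = 6.3e-05) in the left lungs and 0.44 ± 0.12 (adjusted p = 0.023) and 0.68 ± 0.12 (adjusted p = 0.00089) in the right lungs. The call in the right lungs at 30 min was lost without replicate 1 or 2 (0.31 and 0.43). The other tested Hnrnpdl probe set gave 0.42, 0.22, 0.24 and 0.25, none of them called.

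Hnrnpul1, a protein of the hnRNP U family that has been linked to the DNA damage response, went the other way. The Hnrnpul1 signal ran from 596 to 765 over the 6 controls, with a median of 728. It was 439, 549.8 and 487 in the left lungs after 30 min and 405, 432 and 454 after 3 h, beside 436, 491 and 375 and 512, 417 and 516 in the right lungs at the same times. Every operated lung lay below the lowest control. The falls were -0.50 ± 0.11 and -0.68 ± 0.11 in the left lungs (adjusted p = 0.0059 and 0.00029) and -0.67 ± 0.11 and -0.53 ± 0.11 in the right lungs (adjusted p = 0.00099 and 0.0039).

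Hnrnpf and Hnrnph1, which bind runs of G near splice sites, differed in when they were called. The Hnrnpf signal ran from 848 to 1000.3 over the 6 controls, with a median of 923. It was 971, 1409 and 943 in the left lungs after 30 min and 2043, 1863 and 1264 after 3 h, beside 1328, 1314 and 788 and 1343, 1523 and 1560.2 in the right lungs at the same times. At 3 h every lung of both sides lay above the highest control, and at 30 min each side overlapped the controls. The rise was called at 3 h on both sides, 0.86 ± 0.17 (adjusted p = 0.0012) on the left and 0.67 ± 0.17 (adjusted p = 0.012) on the right, and the latter was lost without right 3 h replicate 3 (0.63). At 30 min its differences were 0.24 and 0.27, neither of them called. Hnrnph1 was called in the left lungs at both times, 0.47 ± 0.11 (adjusted p = 0.0062) and 0.42 ± 0.11 (adjusted p = 0.0063), the second call being lost without left 3 h replicate 1 (0.35). Its differences in the right lungs were 0.19 and -0.01. Hnrnpc, which binds uridine tracts, and Hnrnpab were called in the left lungs at 3 h by 0.35 ± 0.11 (adjusted p = 0.017) and 0.35 ± 0.12 (adjusted p = 0.031). The Hnrnpc call was lost without left 3 h replicate 1 (0.24) and the Hnrnpab call in 6 of 9 such fits (0.29 to 0.38). Hnrnpm fell by 0.55 in the left lungs at 3 h (adjusted p = 0.028), a call lost without control replicate 1 or 3 or left 3 h replicate 2 or 3 (-0.46 to -0.49). Hnrnpu, the scaffold attachment factor, fell in the right lungs at 3 h by 0.42 (adjusted p = 0.0059), as did a second Hnrnpu probe set by 0.57 (adjusted p = 0.037). The remaining tested Hnrnpu probe set gave -0.10 there (adjusted p = 0.71) and was called higher in the left lungs at 30 min, by 0.62 (adjusted p = 0.016).

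In the left lungs, 1 of the 8 SF3A and SF3B subunits was higher and 1 lower at 30 min (12.5% each, beside 8.7% and 11.2% of all tested probe sets), and 2 were higher at 3 h (25%, beside 13.8%). Of the 8 Sm and other snRNP proteins, 2 were higher at each time (25%, beside 8.7% and 13.8%). These 2, Snrpa and Snrpa1, were tested because of their signal in the operated lungs. The share of this class is therefore a description and no evidence of a rise. With the probe sets used, Snrpb at 3 h was the one call of both classes in the right lungs. It is 12.5% of the snRNP proteins, beside 8.24% of all tested probe sets called higher there. The SF3A and SF3B subunits had 0 calls, beside 6.07% higher and 7.29% lower at 30 min and 8.24% and 13.2% at 3 h. Other probe sets of Sf3b1, Sf3a1 and Sf3b2 were called lower in the right lungs at 1 or both times. Sf3b1, the largest SF3B subunit, which clamps the branch point helix, had 2 tested probe sets that moved in opposite directions. The signal of the probe set used ran from 1802 to 2224 over the 6 controls, with a median of 1939.5. It was 2511, 2620.3 and 2761 in the left lungs after 30 min and 3361, 2776 and 2562 after 3 h, beside 2308, 2489 and 2334 and 2189, 2643 and 2099.9 in the right lungs at the same times. All operated lungs apart from 2 of the right lungs at 3 h lay above the controls, and its differences were 0.42 ± 0.11 (adjusted p = 0.011) and 0.55 ± 0.11 (adjusted p = 0.00096) in the left lungs, and 0.27 ± 0.11 (adjusted p = 0.1) and 0.22 ± 0.11 (adjusted p = 0.15) in the right lungs. The left 30 min call was lost without replicate 3 of that group (0.38). The signal of the second probe set ran from 1716 to 2095 over the 6 controls, with a median of 1929. It was 892, 887 and 989 in the left lungs after 30 min and 1399, 1037 and 1184 after 3 h, beside 1047, 871 and 937 and 819, 1081 and 1074 in the right lungs at the same times. Here every operated lung lay below every control, with differences of -1.04 ± 0.12 and -0.68 ± 0.12 in the left lungs (adjusted p = 1.6e-05 and 0.00035) and -1.003 ± 0.12 and -0.95 ± 0.12 in the right lungs (adjusted p = 4.1e-05 and 3.2e-05). A direction for the gene as a whole therefore cannot be given. Sf3b6, the subunit that lies at the branch point adenosine, was higher in the left lungs at 3 h, 0.45 ± 0.16 (adjusted p = 0.036), a call lost in 6 of 9 fits that left out 1 array (0.33 to 0.46). Sf3b5, a small SF3B subunit, was lower in the left lungs at 30 min by 0.39 (adjusted p = 0.017), a call lost without left 30 min replicate 1 or 3 (-0.36 in both).

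The U1 and U2 proteins Snrpa and Snrpa1 rose in the clamped lungs. The Snrpa1 signal ran from 117 to 179 over the 6 controls, with a median of 156. It was 252, 233 and 232 in the left lungs after 30 min and 335, 238 and 264 after 3 h, beside 158, 149.8 and 214 and 169, 194 and 155 in the right lungs at the same times. The left lungs lay above every control at both times, and the right lungs overlapped the controls. Snrpa1, the U2 protein A', rose by 0.58 ± 0.13 (adjusted p = 0.0053) at 30 min and 0.77 ± 0.13 (adjusted p = 0.00032) or 1.71-fold at 3 h in the left lungs. In the right lungs its differences were 0.16 ± 0.13 (adjusted p = 0.46) and 0.16 ± 0.13 (adjusted p = 0.42). It was the only member called between the sides: at 3 h the left lungs were higher by 0.61 ± 0.15 (adjusted p = 0.043), beside 1.64% of all tested probe sets called higher there. That call was lost without left 3 h replicate 1 or 3 or without any of the right lungs at 3 h (0.48 to 0.69). Snrpa, the U1 protein A, rose by 0.68 ± 0.15 (adjusted p = 0.0047) and 0.57 ± 0.15 (adjusted p = 0.0073) in the left lungs, the second call being lost without left 3 h replicate 1 (0.38). Fewer than 3 controls exceeded the filter signal of 173.6 for Snrpa and Snrpa1, so these genes were tested because of their signal in the operated lungs. Snrpb, which encodes a protein of the Sm ring, was higher in the right lungs at 3 h, 0.34 ± 0.10 (adjusted p = 0.025), a call lost without control replicate 1 or 6 or right 3 h replicate 2 or 3 (0.29 to 0.35).

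The PRPF factors were called in both directions. Prpf19, the ubiquitin ligase that gives its name to a large spliceosomal complex, fell in all operated groups. The Prpf19 signal ran from 817 to 994 over the 6 controls, with a median of 949.9. It was 687, 563 and 623 in the left lungs after 30 min and 569.9, 462 and 600.4 after 3 h, beside 729, 615 and 675 and 580.1, 722 and 582 in the right lungs at the same times. Every operated lung lay below the lowest control. The differences were -0.56 ± 0.11 and -0.76 ± 0.11 in the left lungs (adjusted p = 0.0022 and 9.8e-05) and -0.46 ± 0.11 and -0.56 ± 0.11 in the right lungs (adjusted p = 0.013 and 0.0022). The right 30 min call was lost without replicate 2 (-0.40). Prpf39, a U1-associated factor, rose in the left lungs. The Prpf39 signal ran from 476 to 687 over the 6 controls, with a median of 646. It was 1024, 1098 and 1125 in the left lungs after 30 min and 1339.6, 1172 and 1175 after 3 h, beside 659, 1037 and 682 and 1063, 998 and 551 in the right lungs at the same times. The left lungs lay above all controls, whereas the right lungs overlapped them. The rises were 0.78 ± 0.18 (adjusted p = 0.0064) and 0.95 ± 0.18 (adjusted p = 0.00077) in the left lungs, beside 0.31 ± 0.18 (adjusted p = 0.28) and 0.42 ± 0.18 (adjusted p = 0.11) in the right. Prpf40b, a U1-associated protein, fell by 0.48 in the left lungs at 30 min (adjusted p = 0.016) and by 0.54 in the right lungs at 3 h (adjusted p = 0.0082). These calls were lost without left 30 min replicate 1 or 3 (-0.37 and -0.45) and without right 3 h replicate 3 (-0.40).

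With the probe sets used, the DEAD-box helicases were called almost solely in the higher direction: 5 of 22 in the left lungs at 30 min (22.7%, beside 8.7% of all tested probe sets), 7 at 3 h (31.8%, beside 13.8%), 5 in the right lungs at 30 min (22.7%, beside 6.07%) and 4 at 3 h (18.2%, beside 8.24%). The 1 lower call was Ddx46 in the left lungs at 3 h (4.55%, beside 23.9%). Among probe sets not used for these counts, the second of Ddx6 was called lower in every operated group, with differences from -1.85 to -2.37. It was the brighter Ddx6 probe set in the controls, with a mean of 1761 beside 918. The second of Ddx54 was called higher at 30 min on both sides. Ddx19b, which remodels mRNA at the cytoplasmic face of the nuclear pore, had the smallest F-test p of all members. The Ddx19b signal ran from 149.5 to 191 over the 6 controls, with a median of 169. It was 311, 324 and 327 in the left lungs after 30 min and 472, 365 and 319 after 3 h, beside 269, 281 and 295 and 306, 265 and 316 in the right lungs at the same times. All operated lungs lay above all controls. The differences were 0.84 ± 0.11 (adjusted p = 9.2e-05) and 1.07 ± 0.11 (adjusted p = 4.8e-06) in the left lungs, the latter 2.1-fold, and 0.67 ± 0.11 (adjusted p = 0.00097) and 0.73 ± 0.11 (adjusted p = 0.0003) in the right. Ddx19b shares most of its sequence with Ddx19a, so the signal may include the paralog.

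Ddx39a and Ddx39b are close paralogs that unwind RNA during mRNA export. The Ddx39a signal ran from 563 to 675 over the 6 controls, with a median of 594. It was 1222, 1151 and 1078 in the left lungs after 30 min and 1735, 1584 and 1203 after 3 h, beside 1378, 914 and 841 and 908, 915 and 1216 in the right lungs at the same times. All operated lungs lay above all controls, and the left lungs at 3 h included the highest values. Ddx39a rose by 0.89 ± 0.15 (adjusted p = 0.00062) and 1.26 ± 0.15 (adjusted p = 1.4e-05) in the left lungs, the latter 2.39-fold and the largest rise of any member there, and by 0.72 ± 0.15 (adjusted p = 0.0044) and 0.70 ± 0.15 (adjusted p = 0.0036) in the right. The Ddx39b signal ran from 1359 to 1937 over the 6 controls, with a median of 1455. It was 2354, 2221 and 2335 in the left lungs after 30 min and 1728, 1729 and 1531 after 3 h, beside 1608, 1509 and 1953 and 1414, 1448 and 1114 in the right lungs at the same times. The left lungs at 30 min were the one group wholly above the controls, with a difference of 0.59 ± 0.13 (adjusted p = 0.0036). The other Ddx39b differences were 0.12 in the left lungs at 3 h and 0.14 and -0.21 in the right lungs. The left 30 min call of Ddx39b was among the many lost without the arrays of high actin ratio.

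Ddx3x, a translation initiation helicase that also enters stress granules, was higher in every operated lung than in any control. The Ddx3x signal ran from 3076 to 3757 over the 6 controls, with a median of 3421. It was 6179, 5629.9 and 5986 in the left lungs after 30 min and 7354, 6785 and 6247 after 3 h, beside 5426, 4913 and 6226 and 4765, 5221 and 6616 in the right lungs at the same times. Its differences were 0.79 ± 0.11 (adjusted p = 0.00017) and 0.98 ± 0.11 (adjusted p = 1.1e-05) in the left lungs, and 0.68 ± 0.11 (adjusted p = 0.00082) and 0.68 ± 0.11 (adjusted p = 0.00057) in the right. The Ddx41 signal ran from 198 to 267 over the 6 controls, with a median of 234. It was 421, 342 and 322 in the left lungs after 30 min and 321, 407 and 314 after 3 h, beside 343, 326 and 389 and 321, 263 and 331 in the right lungs at the same times. Ddx41, a spliceosomal helicase that is also a sensor of cytosolic DNA, overlapped the controls in 1 right lung at 3 h. It rose by 0.59 ± 0.12 (adjusted p = 0.0032) and 0.54 ± 0.12 (adjusted p = 0.0029) in the left lungs and by 0.56 ± 0.12 (adjusted p = 0.0067) and 0.36 ± 0.12 (adjusted p = 0.043) in the right, the last call being lost in 7 of 9 fits that left out 1 array (0.31 to 0.38).

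Other helicases were called once each. In the left lungs at 3 h, Ddx21, which works in ribosome assembly in the nucleolus, and its paralog Ddx50 were higher by 0.63 ± 0.24 (adjusted p = 0.048) and 0.40 ± 0.14 (adjusted p = 0.036). The calls were lost in 8 and 5 of 9 fits that left out 1 array, with log2 differences of 0.42 to 0.66 and 0.27 to 0.42 in those fits. Ddx5, also called p68, was higher there by 0.30 ± 0.09 (adjusted p = 0.014), a call lost without left 3 h replicate 1 (0.26). The other tested Ddx5 probe set was not called there, with 0.055 (adjusted p = 0.7). Ddx56, a nucleolar helicase, was higher in the right lungs at 30 min by 0.40 ± 0.13 (adjusted p = 0.049), a call lost in 8 of 9 fits (0.34 to 0.45). The Ddx46 signal ran from 322 to 384 over the 6 controls, with a median of 349. It was 433, 398 and 364 in the left lungs after 30 min and 274, 295 and 279.9 after 3 h, beside 318, 341 and 342 and 351, 338 and 332 in the right lungs at the same times. Ddx46, the counterpart of yeast Prp5, which prepares U2 for the branch point, thus lay below the controls in all left lungs at 3 h. It fell there by 0.28 against control (adjusted p = 0.019) and by 0.46 ± 0.10 from the left lungs at 30 min (adjusted p = 0.027). The first call was lost without left 3 h replicate 1 (-0.26), and the second without left 30 min replicate 1 (-0.40) or left 3 h replicate 1 or 2 (-0.44 and -0.48).

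Of the 21 RBM proteins, 5 were higher and 1 lower in the left lungs at 30 min, then 8 higher and 6 lower at 3 h. These are 23.8% and 4.76% at 30 min, beside 8.7% and 11.2% of all tested probe sets, and 38.1% and 28.6% at 3 h, beside 13.8% and 23.9%. The right lungs had 2 higher and 3 lower at 30 min (9.52% and 14.3%, beside 6.07% and 7.29%), and 3 higher and 4 lower at 3 h (14.3% and 19.0%, beside 8.24% and 13.2%). Rbm3, the cold-inducible RNA-binding protein, was higher in the operated lungs. The Rbm3 signal ran from 2009 to 3048 over the 6 controls, with a median of 2764. It was 4536, 4586 and 4079.9 in the left lungs after 30 min and 5188, 4714 and 3628 after 3 h, beside 3689, 3308 and 3425 and 3516, 4680.0 and 4921 in the right lungs at the same times. Every operated lung lay above the highest control. The rises were 0.75 ± 0.15 (adjusted p = 0.002) and 0.77 ± 0.15 (adjusted p = 0.00078) in the left lungs and 0.72 ± 0.15 (adjusted p = 0.0023) in the right lungs at 3 h. The difference in the right lungs at 30 min, 0.41 ± 0.15 (adjusted p = 0.075), was not called. The Rbm18 signal ran from 392 to 523 over the 6 controls, with a median of 489. It was 670.5, 767 and 642 in the left lungs after 30 min and 978, 839 and 809.5 after 3 h, beside 747, 644 and 588 and 695, 696 and 536 in the right lungs at the same times. Rbm18 was likewise higher in all operated lungs than in any control, by 0.55 ± 0.13 (adjusted p = 0.0051) and 0.88 ± 0.13 (adjusted p = 7.1e-05) on the left and 0.48 ± 0.13 (adjusted p = 0.017) and 0.44 ± 0.13 (adjusted p = 0.019) on the right. The right-lung Rbm18 calls were lost without right 30 min replicate 1 (0.39) and without right 3 h replicate 1 or 2 (0.38 in both).

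The Rbm7 signal ran from 271 to 394 over the 6 controls, with a median of 302. It was 329, 427 and 383 in the left lungs after 30 min and 576, 466 and 554 after 3 h, beside 468, 419.6 and 321 and 529, 488 and 438 in the right lungs at the same times. Rbm7, a part of the NEXT complex that directs nuclear RNA to the exosome, thus separated from the controls at 3 h on both sides and overlapped them at 30 min. The differences were 0.73 ± 0.13 (adjusted p = 0.00059) and 0.60 ± 0.13 (adjusted p = 0.0045) at 3 h, and 0.27 ± 0.13 (adjusted p = 0.17) and 0.34 ± 0.13 (adjusted p = 0.1) at 30 min. The change with time was not called on either side. Rbm25, which associates with U1, Rbm39, a relative of the U2AF large subunit, and Rbm17, which acts in 3' splice site selection, rose in the left lungs at both times. Rbm25 rose by 0.68 ± 0.14 (adjusted p = 0.0023) and 0.38 ± 0.14 (adjusted p = 0.038), Rbm39 by 0.43 ± 0.11 (adjusted p = 0.0094) and 0.49 ± 0.11 (adjusted p = 0.0021), and Rbm17 by 0.46 ± 0.12 (adjusted p = 0.01) and 0.38 ± 0.12 (adjusted p = 0.018). Rbm17 was also called in the right lungs at 30 min, 0.45 ± 0.12 (adjusted p = 0.018), a call lost without right 30 min replicate 1 or 3 (0.41 and 0.38). At 30 min the Rbm39 and Rbm17 calls on the left were lost without left 30 min replicate 1 (0.34 and 0.40). At 3 h the Rbm17 call was lost without left 3 h replicate 1 or 2 (0.29 and 0.36), and the Rbm25 call in 7 of 9 fits (0.35 to 0.38). Of the other 3 tested Rbm39 probe sets, 1 was called higher in all 4 groups, by 0.76 and 0.60 on the left and 0.51 and 0.38 on the right. The others were called in the left lungs at 3 h alone, by 0.68 and 0.32, with right-lung values of 0.10 and 0.18 for one and -0.01 and 0.13 for the other. Rbm33 rose in the left lungs at 3 h by 0.59 ± 0.15 (adjusted p = 0.005), as did Rbm15, a part of the m6A writer complex, by 0.37 ± 0.13 (adjusted p = 0.04), the latter lost in 5 of 9 fits (0.28 to 0.37).

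Rbm4b, a paralog of the splicing regulator Rbm4 with which its probes may cross-react, fell in every operated group and most in the right lungs at 3 h. The Rbm4b signal ran from 411 to 449 over the 6 controls, with a median of 434. It was 379.8, 280.5 and 302 in the left lungs after 30 min and 295, 240.1 and 222 after 3 h, beside 327, 256 and 253 and 178, 173 and 191 in the right lungs at the same times. All operated lungs lay below all controls, and the 3 right lungs at 3 h were the lowest of all. The differences were -0.40 ± 0.11 and -0.72 ± 0.11 in the left lungs (adjusted p = 0.017 and 0.00015), and -0.59 ± 0.11 and -1.14 ± 0.11 in the right (adjusted p = 0.0025 and 4.5e-06). The fall at 3 h on the right was 2.21-fold. The left 30 min call was lost without replicate 2 or 3 of that group (-0.32 and -0.37). The Rbm14 signal ran from 335 to 436 over the 6 controls, with a median of 389. It was 349, 217 and 266 in the left lungs after 30 min and 235, 247 and 227 after 3 h, beside 302, 242 and 315 and 215, 107 and 222 in the right lungs at the same times. Rbm14, a coactivator found in paraspeckles, lay below all controls in every group except the left lungs at 30 min. Its differences were -0.64 ± 0.17 in the left lungs and -1.03 ± 0.17 in the right lungs at 3 h (adjusted p = 0.0085 and 0.00059), and -0.45 and -0.40 at 30 min, neither called.

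Rbm12b was lower at 3 h on both sides and in the right lungs at 30 min. The Rbm12b signal ran from 253 to 303 over the 6 controls, with a median of 289. It was 224, 170.0 and 267 in the left lungs after 30 min and 166, 166 and 203 after 3 h, beside 152, 203 and 223 and 169.8, 179 and 97.3 in the right lungs at the same times. Every operated lung but 1, left 30 min replicate 3, lay below the controls. The differences were -0.60 ± 0.16 in the left lungs at 3 h (adjusted p = 0.0076), and -0.51 ± 0.16 and -0.86 ± 0.16 in the right lungs (adjusted p = 0.044 and 0.0013). The right 30 min call was lost in 8 of 9 fits (-0.37 to -0.55). With the probe sets used, Rbm24, a regulator of muscle-specific splicing, had the largest fall of any member in the left lungs at 3 h. The Rbm24 signal ran from 259.9 to 464 over the 6 controls, with a median of 382. It was 322, 270.4 and 393 in the left lungs after 30 min and 155, 195 and 240.2 after 3 h, beside 314, 224 and 270.4 and 242, 464 and 212 in the right lungs at the same times. The 3 left lungs at 3 h lay below all controls, with a difference of -0.85 ± 0.21 (adjusted p = 0.0053). The other tested Rbm24 probe set was not called there, with -0.59 ± 0.48 (adjusted p = 0.35). By limma, 0 of the 6 tested cardiac muscle markers were called there, and 4 had an unadjusted p under 0.05. Over all 11 measured cardiac muscle markers, including those too dim to be tested, the mean log2 signal ran from 5.73 to 7.64 in the controls. It ran from 5.72 to 5.97 in these left lungs (exact two-sided permutation p = 0.0714, 0.118 adjusted over 48 tests). Its part in the Rbm24 result was not tested. Rbm45 and Rbm42 were lower in the left lungs at 3 h, by -0.70 ± 0.19 and -0.31 ± 0.11 (adjusted p = 0.0092 and 0.036), calls lost without left 3 h replicate 2 (-0.42) and in 7 of 9 fits (-0.27 to -0.31). Rbm5, which regulates the splicing of apoptosis genes, was lower in the right lungs at 3 h, -0.56 ± 0.14 (adjusted p = 0.0078), a call lost without right 3 h replicate 3 (-0.44). Rbm27 was lower in the right lungs at 30 min, -0.63 ± 0.18 (adjusted p = 0.029), a call lost without control replicate 1, 5 or 6 or right 30 min replicate 3 (-0.38 to -0.61).

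**Figure D2:**
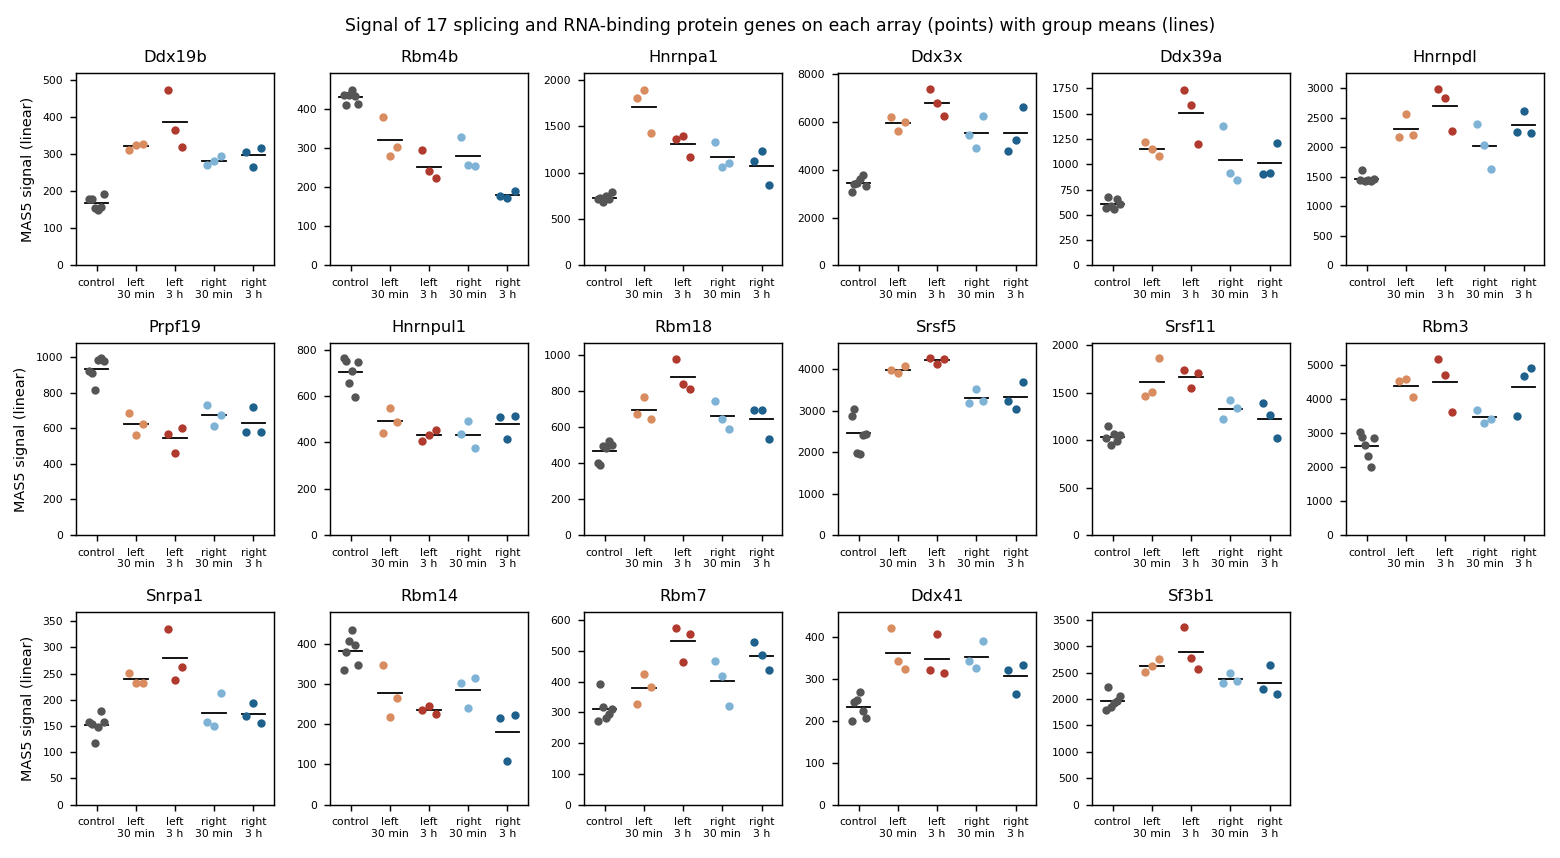
MAS5 signal on a linear scale (vertical axis, from 0) of 17 members on each of the 18 arrays (points) with group means (lines), for the 6 controls and the 3 lungs of each operated group. The points of all 4 operated groups lie above the controls for Ddx19b, Hnrnpa1, Ddx3x, Ddx39a, Hnrnpdl, Rbm18 and Rbm3, and below them for Rbm4b, Prpf19 and Hnrnpul1.

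**Figure D3:**
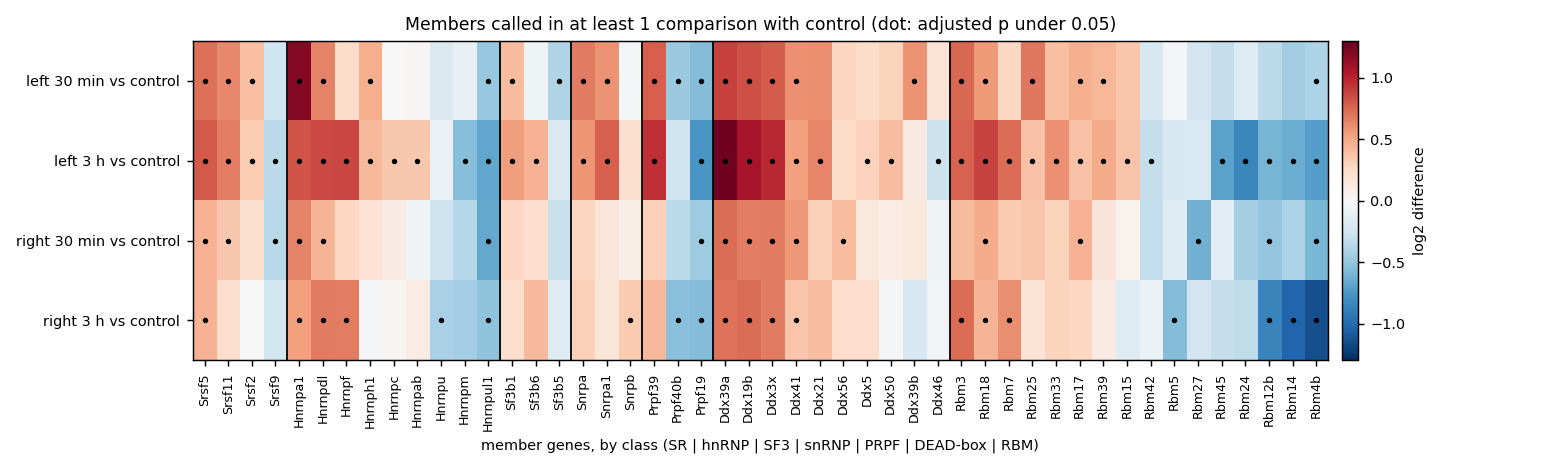
Log2 difference from the 6 controls (colour, red higher and blue lower) of each member called in at least 1 comparison with control, with the 4 comparisons as rows and the genes as columns, ordered by class; dots mark adjusted p under 0.05 in limma. The DEAD-box columns are mostly red, from Ddx39a at 1.26 in the left lungs at 3 h to Ddx46 at -0.28, and the RBM columns end in blue with Rbm4b at -1.14 in the right lungs at 3 h.

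The second probe sets of several members differed from the first; these genes were singled out after their values were seen. Of the 95 members, 23 had several probe sets, and 24 further probe sets of 18 genes were tested. Of these, 7 were called in at least 1 comparison with control in the direction opposite to the sign of the gene's first probe set, and 11 were called where the first was not. Both probe sets were called in opposite directions for 1 gene, Sf3b1. For the called members, 23 of 26 differences of other probe sets had the sign of the first, and 8 of these were called too. Ddx6, a helicase of P bodies that acts in decapping and translational repression, was among the genes whose probe sets differed. The signal of its first probe set ran from 867 to 1037 over the 6 controls, with a median of 903. It was 1040.4, 1036 and 844 in the left lungs after 30 min and 1038, 922 and 814 after 3 h, beside 936, 847 and 785 and 643, 929 and 785 in the right lungs at the same times. This signal overlapped the controls in all groups, and its differences, 0.08 and 0.01 in the left lungs at 30 min and 3 h, and -0.10 and -0.23 in the right lungs, were not called. The signal of its second probe set ran from 1182 to 2064 over the 6 controls, with a median of 1876. It was 357, 293 and 356 in the left lungs after 30 min and 634, 290.3 and 412 after 3 h, beside 515, 387 and 491 and 256, 298 and 409 in the right lungs at the same times. Here every operated lung lay far below every control. The log2 differences were -2.29 ± 0.21 and -1.97 ± 0.21 in the left lungs (adjusted p = 2.9e-06 and 4.7e-06) and -1.85 ± 0.21 and -2.37 ± 0.21 in the right (adjusted p = 2.9e-05 and 1.4e-06), or 3.62-fold to 5.17-fold.

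Srsf6, an SR protein, gave a rise with its second probe set. That signal ran from 395 to 529 over the 6 controls, with a median of 419. It was 719, 786 and 699 in the left lungs after 30 min and 831, 665 and 596 after 3 h, beside 690.0, 595 and 669 and 605, 667 and 519.8 in the right lungs at the same times. The left lungs and the right lungs at 30 min lay above every control, and the right lungs at 3 h reached down into the control range. The rises were 0.71 ± 0.12 and 0.62 ± 0.12 in the left lungs (adjusted p = 0.00088 and 0.0011) and 0.54 ± 0.12 and 0.41 ± 0.12 in the right (adjusted p = 0.0094 and 0.026). The last call was lost without control replicate 3 or 6 or right 3 h replicate 1 or 2 (0.33 to 0.40). The first Srsf6 probe set gave 0.11 and 0.06 in the left lungs at 30 min and 3 h, and -0.01 and -0.23 in the right lungs, none called. Sf3a1, a subunit that joins SF3A to U2, fell with its second probe set by 0.94 ± 0.21 in the left lungs and 1.02 ± 0.21 in the right lungs at 3 h (adjusted p = 0.0024 and 0.0025), and was not called with its first. These genes were picked because their probe sets differ, so the difference between the probe sets is given as a description, with no test. The mean log2 ratio of first to second probe set differed from the controls by 1.18 to 1.46 for Sf3b1, by 1.76 to 2.37 for Ddx6, by -0.54 to -0.65 for Srsf6 and by 0.63 to 1.22 for Sf3a1. Where in each transcript the probe sets lie was not analysed here.

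**Figure D4:**
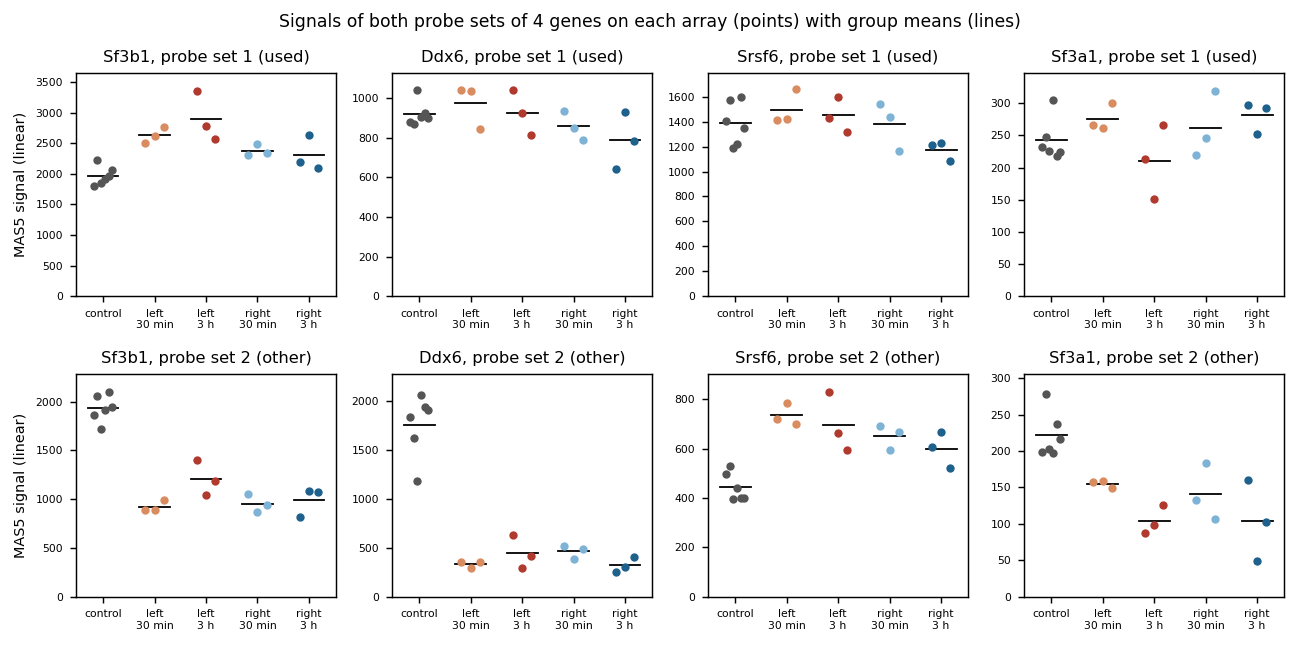
MAS5 signal on a linear scale (vertical axis, from 0) of the first probe set (top row, the one used for the gene) and the second (bottom row) of Sf3b1, Ddx6, Srsf6 and Sf3a1 on each array (points), with group means (lines). For Ddx6 the first probe set stays between 643 and 1040.4 on all arrays, whereas the second lies between 1182 and 2064 in the controls and between 256 and 634 in the operated lungs.

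Few members were called between the clamped and the unclamped side. At 30 min, 0 of 91 were called by limma, beside 0.038% of all tested probe sets, and 10 had an unadjusted p under 0.05. At 3 h Snrpa1 alone was called, beside 2.28% of all tested probe sets, and 25 had an unadjusted p under 0.05. The median difference of left over right was 0.10 at 30 min and 0.11 at 3 h, beside -0.01 and -0.07 over all tested probe sets. From 30 min to 3 h, Ddx46 alone was called in the left lungs, lower, beside 1.88% of all tested probe sets called lower and 3.47% called either way, with 17 at an unadjusted p under 0.05. On the right 0 were called, beside 0.199%, with 5 at an unadjusted p under 0.05. For the change with time of the difference between the sides, 0 were called, beside 0.228%, with 3 at an unadjusted p under 0.05. A rise called in the left lungs and not in the right, as for Prpf39, Hnrnph1 or Rbm39, was therefore not shown to differ between the sides.

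The other genes of splicing and RNA processing, a list of 90 measured genes outside the name rule, were called in both directions. Of the 90, 9 were higher (10%, beside 8.7% of all tested probe sets) and 5 lower (5.56%, beside 11.2%) on the left at 30 min, and 14 (15.6%, beside 13.8%) and 16 (17.8%, beside 23.9%) at 3 h. The right lungs had 4 higher (4.44%, beside 6.07%) and 5 lower (5.56%, beside 7.29%) at 30 min, and 5 higher (5.56%, beside 8.24%) and 16 lower (17.8%, beside 13.2%) at 3 h. The shares called higher lay near those of all tested probe sets. The shares called lower were smaller than theirs except in the right lungs at 3 h, where the share was larger. Rbfox2, a regulator of tissue-specific exons, had the largest fall among those named: -1.50 ± 0.19 and -1.23 ± 0.19 in the left lungs (adjusted p = 5.6e-05 and 0.00014) and -1.13 ± 0.19 in the right lungs at both times (adjusted p = 0.00091 and 0.00059). Sfpq and Tardbp fell in the right lungs at 3 h by 1.34 ± 0.23 and 1.01 ± 0.10 (adjusted p = 0.00066 and 5.9e-06). Sfpq encodes a paraspeckle protein, and Tardbp encodes TDP-43, which represses cryptic exons. Elavl1, which encodes the RNA-stabilizing protein HuR, fell there by 0.60 ± 0.10 (adjusted p = 0.00071). Nono, the partner of Sfpq, fell by 0.55 ± 0.10 in the left lungs at 3 h (adjusted p = 0.00059). For this list the left 30 min count of 14 was 8 without left 30 min replicate 1 or without replicate 3, 5 when the 3 arrays of high actin ratio were left out and 9 with that ratio as a covariate. The left 3 h count of 30 was 16 without left 3 h replicate 1.

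Between the sides at 3 h, 3 of these 90 genes were higher on the left: Tardbp by 0.81 ± 0.12 (adjusted p = 0.0016), Tra2a, an SR-like splicing activator, by 1.14 ± 0.24 (adjusted p = 0.018), and Elavl1 by 0.50 ± 0.12 (adjusted p = 0.037). All 3 calls were lost with the compared groups alone and with a replicate block. The Tardbp call held in all 6 fits that left out 1 array of these groups. The Tra2a call was lost without left 3 h replicate 1 (0.87), and the Elavl1 call in 4 of 6 fits. Among the rises, Rbms1, a single-stranded nucleic acid binding protein, was higher in every operated group, by 0.93 ± 0.17 and 0.91 ± 0.17 on the left (adjusted p = 0.00099 and 0.00061) and by 0.82 ± 0.17 and 0.66 ± 0.17 on the right (adjusted p = 0.0037 and 0.01), the last being lost without right 3 h replicate 3 (0.54). Celf2, a regulator of alternative exons, was higher by 1.11 ± 0.15 and 0.69 ± 0.15 on the left at 30 min and 3 h and by 1.09 ± 0.15 on the right at 30 min (adjusted p = 7.3e-05, 0.0017 and 0.00014), and these calls were lost when all its probe sets were averaged. Ik, a spliceosomal protein also known as RED, rose at 3 h by 0.48 ± 0.09 on the left and 0.43 ± 0.09 on the right (adjusted p = 0.00052 and 0.0023). Eif4a3, the helicase of the exon junction complex, rose on the right by 0.43 ± 0.09 at 30 min and 0.46 ± 0.09 at 3 h (adjusted p = 0.0061 and 0.0023).

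The members not called against control, the remainder of the shares given at the start, numbered 66 of 91 in the left lungs at 30 min, 51 at 3 h, 74 in the right lungs at 30 min and 71 at 3 h. The members varied little among the lungs of a group, with a median within-group SD of 0.163 on the log2 scale beside 0.215 over all tested probe sets. Ddx1, a helicase of the tRNA ligase complex, varied least (0.0683), and its signal was 977 ± 57.6 (SD, n = 6) in the controls and 1123 ± 75.9, 1059 ± 17.8, 1095 ± 37.5 and 1018 ± 30.6 (SD, n = 3 each) in the left lungs at 30 min and 3 h and the right lungs at 30 min and 3 h. Ddx10 (0.765) and Snrpn (0.615) varied most. Of the 91 tested members, 76 exceeded the filter signal on all arrays, and 5 did so on fewer than 3 controls.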

How the data were processed

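Signals on a linear intensity scale, 1 per probe set and array, were deposited by the authors, made with MAS5 per the submitters' processing notes (its version is not given in the sources used here). Every array had a 2% trimmed mean of about 500.1 in the file, so no further scaling was applied. The 57 control probe sets were left out of 15923. Values were taken as log2(signal + 25), and the test was run on the 10533 probe sets with 3 or more of the 18 arrays above a signal of 173.6, the 40th percentile. The number of arrays limits the precision.

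Gene symbols came from the platform annotation, in which 12783 probe sets have 1 symbol, 312 have several and 2771 have none. Checking the 95 members against a current RefSeq table changed 0 symbols. Groups were compared in limma 3.58.1 (R 4.3.3) with lmFit and eBayes on 5 group means over all 18 arrays, two-sided, with Benjamini-Hochberg adjustment over the tested probe sets of each comparison. Array measures were compared by exact permutation in Python 3.11.15 with numpy 2.4.6 and scipy 1.17.1. The fit was tested on simulated data.

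The members, the gene lists and the tests were chosen with earlier results of these data known. Members with per-array values were the 16 with the smallest adjusted p of the F test over the groups, the first of each class not among them, and Rbm3. Called members were named by class, up to the 4 of smallest adjusted p in a class and direction, and all where at most 5 were called. Other per-array values, further called members and the second probe sets were chosen after their values were seen. From the 90 other splicing genes, up to 4 of smallest adjusted p in each direction could be named. Alternatives were other pseudocounts (5 and 100), median centring, quantile normalization, no filter, trended and robust eBayes, fits of the compared groups alone, means over probe sets, a replicate block, the actin ratio, and each array left out in turn.

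Left and right lungs came from the same rats, but the labels do not say that equal replicate numbers mark a rat. Deviations from the group means correlated across the sides, for equal numbers, at 0.12, 0.31 and 0.15 at 30 min. For unequal numbers the correlations ran from -0.29 to 0.10 there. At 3 h they were -0.17, 0.07 and -0.15 for equal numbers and -0.24 to 0.34 for unequal ones. With 3 lungs a side, these values cannot settle whether equal numbers mark a rat.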

Additional observations from a re-analysis of the deposited data

Results flagged for a closer look

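The Hnrnpdl signal of control replicate 2, 1615, stood apart from the other 5 controls by Dixon's test; it was the one such control among 17 members tested, and chance flags about 1 in 20 groups. Snrpa1 differed between the sides at 3 h, higher on the left by 0.61 (limma adjusted p = 0.043, 3 lungs against 3). Its signal exceeded the filter on 1 control, so it was tested because of its signal in the operated lungs. Ddx46 differed between the times in the left lungs, with a log2 difference of -0.46 at 3 h against 30 min (limma adjusted p = 0.027, 3 lungs against 3). Of the 6 fits that left out 1 array of the compared groups, 5 lost the Snrpa1 call and 3 lost the Ddx46 call.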

How the results depend on the processing

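Of 104 called member differences, 98 were also called with arrays centred on their median, 91 after quantile normalization, 94 without the filter, 102 with either pseudocount, and 100 with trended and robust eBayes or with the compared groups alone. A replicate block kept 58 of them: the counts of called members fell to 14 in the left lungs at 30 min, 23 at 3 h and 7 in the right lungs at 30 min (14 of 20 in the right lungs at 3 h), and to 0 for left against right at 3 h and for 3 h against 30 min in the left lungs. The block left the left-right count at 30 min at 0. For the 90 other genes it gave 4, 14, 3 and 11 in place of 14, 30, 9 and 21. Control numbers name other rats, so the block has no biological counterpart in comparisons with control. Without the arrays of high actin ratio 8 members were called in the left lungs at 30 min, with the ratio as a covariate 13, and 0 in both for 3 h against 30 min in the left lungs. For the other genes these left 30 min counts were 5 and 9, and 23 with the compared groups alone. The single left-right call at 3 h went to 0 without the filter, with trended and robust eBayes and with the compared groups alone, and the single call over time in the left lungs to 0 after quantile normalization and with the compared groups alone; the cause was not tested.

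Leaving out each array in turn gave 21 to 26 called members in the left lungs at 30 min, 25 to 40 at 3 h, 10 to 14 in the right lungs at 30 min and 18 to 21 at 3 h, 0 to 2 for left against right at 3 h and 0 to 2 for 3 h against 30 min in the left lungs. Of the calls, 18 of 25, 23 of 40, 7 of 17 and 13 of 20 were kept in every such fit against control. For the other genes the ranges were 8 to 12, 16 to 29, 6 to 9 and 14 to 21. Averaging all probe sets of a gene turned Sf3b1 to -0.31, -0.0645, -0.37 and -0.36 (left 30 min, left 3 h, right 30 min, right 3 h), because its probe sets oppose each other, and Rbm7 in the left lungs at 30 min to -0.12, which was not called either way.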
